A study of Mus musculus with 9 samples.

Results

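The 9 genes described here encode proteins with which endothelium starts, holds back or dissolves a blood clot: Vwf, F8, F3, Thbd, Procr, Tfpi, Tfpi2, Plat and Plau. They were taken by symbol from an RNA-seq table of 41214 Ensembl genes, where each of the 9 matched 1 row and all 9 passed the filter on low counts that left 17103 genes for testing. The libraries came from endothelial cells sorted out of the ventricles of fetal mouse hearts at E17.5 (days of embryonic development), with 3 replicates of each of 3 sorted populations. Every embryo carried the transgenes Nes-Gfp(Tg/0) and Nes-CreER(Tg/0) and the reporter allele R26 (tom/+), and was exposed to 0.1 ug of tamoxifen at E15.5, so that no group lacks these alleles or the drug. GFP and the recombinase were thus both driven by Nes, and Tomato marks cells in which that recombinase acted and the progeny of such cells.

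All populations were viable, negative for the erythroid antigen Ter119 and the leukocyte antigen CD45, and positive for CD31 and GFP. The arterial-enriched population, which also holds capillaries, was low for endomucin and positive for Tomato. The venous-enriched population was low for endomucin, negative for Tomato and low for GFP. The endocardial gate as written sets neither endomucin nor Tomato. Arterial and venous libraries are called coronary below, and the endocardium is the lining of the heart chambers.

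Clotting in a vessel begins when tissue factor, encoded by F3, meets plasma factor VII, and the cascade ends with thrombin, which turns fibrinogen into fibrin. Von Willebrand factor (Vwf) is stored in the Weibel-Palade bodies of endothelial cells, tethers platelets and carries factor VIII (F8). Healthy endothelium holds the cascade back with tissue factor pathway inhibitor (Tfpi) and with thrombomodulin (Thbd), which binds thrombin so that it activates protein C on its receptor, EPCR (Procr). Fibrin is dissolved by plasmin, which the tissue and urokinase plasminogen activators (Plat and Plau) release from plasminogen.

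Total counts were 12750553 to 19474419 per library. The summed level of 5 endocardial markers (Npr3, Nfatc1, Cdh11, Tbx20 and Adgrg6) was 3586 to 4236 CPM (counts relative to the TMM-scaled library size) in the endocardial libraries, 264 to 383 in the venous and 92.1 to 107 in the arterial ones. Npr3, Nfatc1, Cdh11 and Adgrg6 had their highest means in endocardial libraries. Tbx20 went the other way, with 114 to 177 CPM in venous and 80.1 to 100 in endocardial libraries. The 6 endothelial markers Pecam1, Cdh5, Tie1, Tek, Kdr and Flt1 summed to 3579 to 4884 CPM in endocardial, 5127 to 6933 in venous and 5234 to 7434 in arterial libraries, so that all 3 endocardial sums lay below the coronary ones. The markers did not all go this way. Pecam1, Cdh5, Kdr and Flt1 had their lowest means in endocardial libraries, but Tek and Tie1 their highest. Tek had means of 948, 536 and 390 CPM and Tie1 318, 254 and 244 CPM in endocardial, venous and arterial libraries. Of 6 arterial markers (Gja5, Gja4, Cxcr4, Sox17, Efnb2 and Dll4) the sum was 640 to 798 CPM in the arterial libraries, against 300 to 328 in the venous and 255 to 329 in the endocardial ones. The 4 venous markers (Nr2f2, Aplnr, Ephb4 and Emcn) did not single out the venous libraries. Their sum was 832 to 1073 CPM in endocardial, 687 to 840 in venous and 417 to 436 in arterial libraries. Mean Aplnr was highest in venous libraries (384 CPM), whereas Nr2f2, Ephb4 and Emcn had their highest means in endocardial ones. Endocardial replicate 1 stood apart from its group, with 21101 genes detected against 17337 and 17130. The labels do not say whether replicates came from separate litters or pools, so that p-values reflect only how these libraries vary, and that variation may be technical. In such sorted bulk samples, fewer cells of a type and less RNA per cell cannot be told apart.

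The endocardial libraries had the highest Vwf and Procr and the lowest Plat and Plau of the 3 populations. Against the average of the 2 coronary populations, taken on a log2 scale, Vwf was 7.64-fold and Procr 6.17-fold higher in endocardium, while Plat was 2.31-fold and Plau 6.09-fold lower. Thus 4 of the 9 members were called (2 higher and 2 lower) at an adjusted p under 0.05 in edgeR's quasi-likelihood test, where 13.9% of all tested genes were called (6.91% higher and 7% lower). The members' median log2 fold change was 0.09, and that of all genes 0.08. None of the 4 genes overlapped between the 3 endocardial and the 6 coronary libraries, as was so for 17.6% of all genes. It follows from this that each moved the same way in 3 of 3 batches. The 4 calls held under each of the 14 alternative settings run for this comparison.

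**Figure D1:**
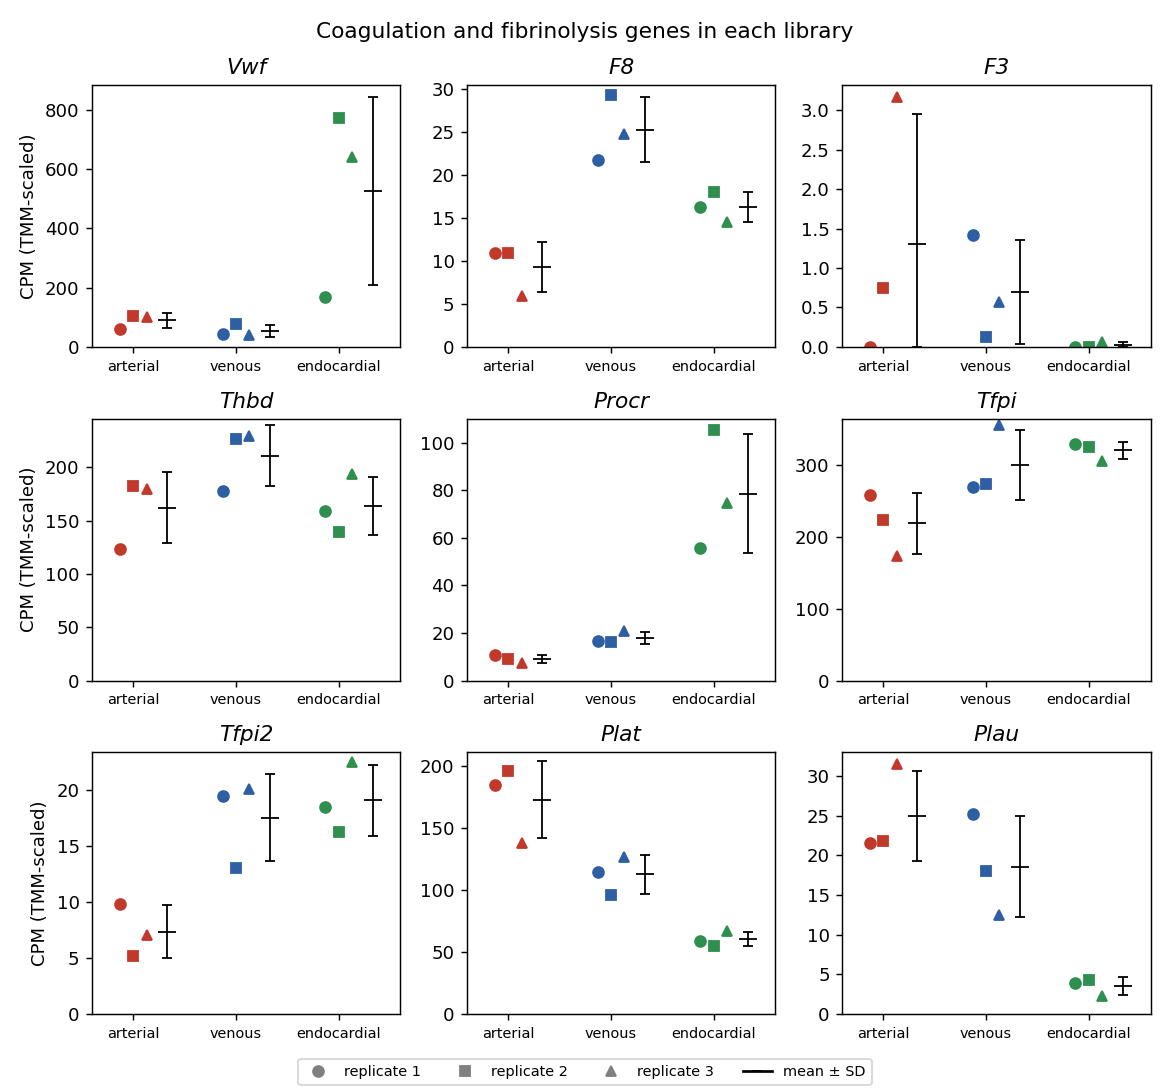
TMM-scaled CPM (vertical axes, linear, starting at 0) of the 9 genes in the 9 libraries, grouped by population, with the symbol giving the replicate and the mean ± SD of 3 libraries as the bar beside it, which ends at 0 where the SD exceeds the mean. Vwf and Procr are highest and Plat and Plau lowest in the 3 endocardial libraries, F8 is highest in the 3 venous ones, and F3 reaches at most 3.16 CPM in any library.

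Between genes, levels were compared per kilobase of the longest annotated transcript, since a longer transcript yields more counts. On that scale Tfpi was the highest of the 9 in each population, at 80.6 CPM per kb in endocardial, 75.4 in venous and 55.0 in arterial libraries. The other 8 were ordered differently by population. In the endocardium Vwf (59.6 CPM per kb), Procr (48.8) and Thbd (44.1) followed Tfpi, with Plat at 14.9. Arterial libraries had Thbd at 43.6 and Plat at 42.7 CPM per kb in the next places, with Vwf at 10.1 and Procr at 5.65. In venous libraries Thbd (56.7 CPM per kb) and Plat (27.8) came next, and Vwf stood at 6.01. F8 and F3 had the lowest values in the arterial and venous libraries, and F3 the lowest in all 3 populations.

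**Figure D2:**
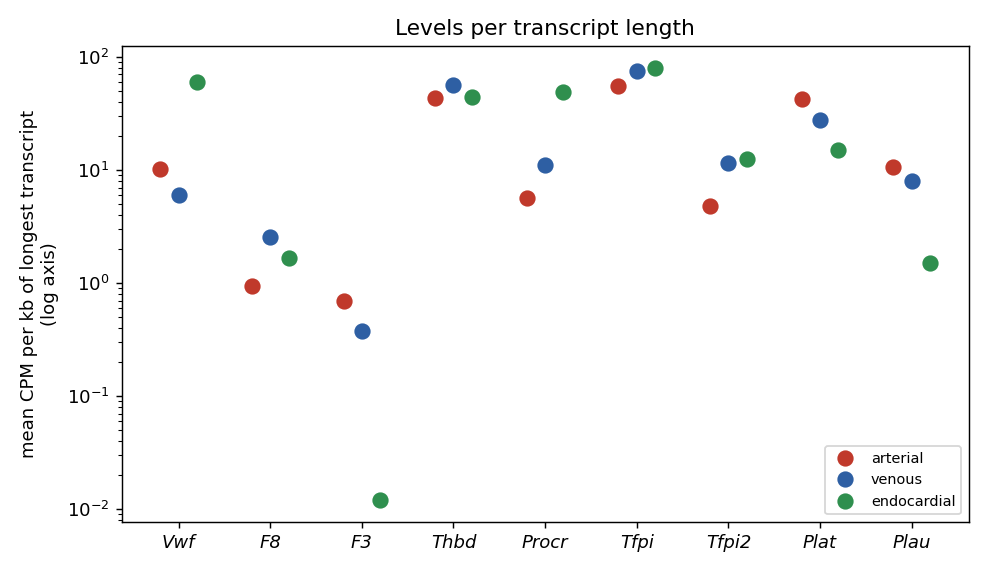
Mean CPM per kilobase of the longest annotated transcript (vertical axis, log scale) of the 9 genes, with 1 point per population and no error bars. Tfpi lies at 55.0 to 80.6 in every population, whereas the endocardial points of Vwf and Procr lie above the coronary ones and those of Plat and Plau below.

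Among the procoagulant genes, Vwf (chromosome 6, 125546774 to 125686679, plus strand, GRCm38) had 168, 772 and 640 CPM in endocardial replicates 1, 2 and 3. It had 61.0, 105 and 103 CPM in the arterial and 42.9, 76.8 and 39.6 CPM in the venous replicates. All 3 endocardial libraries thus lay above all 6 coronary ones, but replicate 1 lay far below the other two. The log2 difference from the coronary mean was 2.93 ± 0.48 (SE, adjusted p = 0.00699), and 3.35 without endocardial replicate 1 (adjusted p = 7.07e-06, with a range of 1.41e-07 to 0.039 over the alternatives).

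Each coronary population taken alone was also lower in Vwf than the endocardium, with log2 -2.56 ± 0.61 for arterial (adjusted p = 0.0401) and -3.31 ± 0.63 for venous libraries (adjusted p = 0.018). Both calls depended on the libraries in the fit, while the log2 difference stayed at -2.98 to -2.18 for arterial and at -3.73 to -2.91 for venous libraries over the alternatives. Without endocardial replicate 1 the adjusted p was 0.000107 for arterial and 3.49e-05 for venous libraries. The arterial one ended without any 1 of arterial replicates 1 to 3, endocardial replicates 2 or 3, or venous replicates 1 to 3 (adjusted p = 0.0777 to 0.164). It also ended with only the compared populations in the fit (0.0812) and without the low-count filter (0.0913). For the venous one the call was lost without arterial replicate 2, endocardial replicates 2 or 3, or venous replicates 1 to 3 (adjusted p = 0.0517 to 0.12). Arterial and venous libraries overlapped, and the difference of Vwf between them was not called (log2 0.75 ± 0.58, adjusted p = 0.839).

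Platelets, their precursors and lymphatic endothelium are other cells in which Vwf is known to be expressed. The summed level of 8 platelet and megakaryocyte markers was 29.3 to 39.6 CPM in endocardial, 9.22 to 16.1 in arterial and 9.52 to 16.7 in venous libraries. Of these markers Gp1bb had no count in any endocardial library, Pf4 had 3.53 to 6.86 CPM there and Gp1ba 9.66 to 16.9 CPM. A list of 6 lymphatic markers summed to 690 to 798 CPM in endocardial, 84.5 to 113 in arterial and 123 to 205 in venous libraries. The means in endocardial, venous and arterial libraries were 241, 18.3 and 7.30 CPM for Prox1, 240, 8.92 and 3.10 CPM for Lyve1 and 148, 8.47 and 5.16 CPM for Reln. Ccl21a had 34.5 to 56.4 CPM in endocardial and at most 0.56 CPM in coronary libraries. Flt4 had means of 86.4, 118 and 86.6 CPM in the same order, and Pdpn at most 4.11 CPM in any library. In endocardial replicates 1, 2 and 3 the platelet sum was 39.6, 29.3 and 35.4 CPM and the lymphatic sum 690, 795 and 798 CPM, beside Vwf at 168, 772 and 640 CPM. The part of these cell types in the Vwf difference was not tested.

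F8 (chromosome X, 75172715 to 75382615, minus strand), which encodes the cofactor that von Willebrand factor carries, did not follow Vwf. It was highest in the venous libraries, with 21.8, 29.3 and 24.7 CPM in replicates 1, 2 and 3, against 16.3, 18.1 and 14.5 in the endocardial and 10.98, 10.94 and 5.96 in the arterial ones. The libraries of the 3 populations did not overlap in any pairing.

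The arterial to venous difference of F8 was log2 -1.44 ± 0.32 (2.72-fold lower, adjusted p = 0.0392). It was the only member called in that comparison, that is 1 of 9 where 1.07% of all genes were called (0.31% higher and 0.76% lower). That call ended without arterial replicates 2 (adjusted p = 0.0633) or 3 (0.173) or venous replicates 1 (0.0865), 2 (0.23) or 3 (0.142), with log2 fold changes of -1.63 to -1.22 and a range of adjusted p of 0.00178 to 0.23 over all alternatives. Between venous and endocardial libraries F8 differed by 0.63 ± 0.32 (adjusted p = 0.258), and between arterial and endocardial ones by -0.81 ± 0.32 (adjusted p = 0.131).

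F3 (chromosome 3, 121723537 to 121735048, plus strand), the gene of tissue factor, was near the limit of detection. Its counts were 0, 13 and 43 in arterial replicates 1, 2 and 3, then 24, 2 and 11 in the venous and 0, 0 and 1 in the endocardial ones. The highest level in any library was 3.16 CPM. F3 was not called in any comparison by edgeR (adjusted p = 0.2 to 0.971), and its fitted folds are not described here because counts this low do not fix them. DESeq2 called F3 lower in endocardial than in coronary libraries (adjusted p = 0.0486, in a range of 0.0486 to 0.397 over the alternatives).

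The anticoagulant genes did not share 1 pattern. Procr (chromosome 2, 155751117 to 155755471, plus strand) had 55.8, 105 and 74.5 CPM in endocardial replicates 1, 2 and 3. The venous replicates had 16.4, 16.2 and 20.8 CPM and the arterial ones 10.8, 9.04 and 7.35. The populations formed 3 steps with no overlap. Procr was lower by log2 3.11 ± 0.28 (8.65-fold) in arterial and by 2.14 ± 0.27 (4.399-fold) in venous than in endocardial libraries, with adjusted p of 8.97e-07 and 4.89e-05. Both calls held under all 15 alternatives.

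The step of Procr from venous to arterial libraries, log2 -0.98 ± 0.27, missed the threshold (adjusted p = 0.137). It passed with DESeq2 (0.0469) and without the low-count filter (0.0238), in a range of 0.0238 to 0.525 over the alternatives.

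Thbd (chromosome 2, 148404466 to 148408188, minus strand), whose product works on the same surface as EPCR, did not share the pattern of Procr. It had 124, 183 and 180 CPM in arterial replicates 1, 2 and 3, then 178, 227 and 229 in the venous and 159, 139 and 193 in the endocardial ones. The 3 populations overlapped. Its log2 difference between endocardial libraries and the coronary mean was -0.17 ± 0.17 (adjusted p = 0.608). Its arterial to venous difference was -0.38 ± 0.19 (adjusted p = 0.628). No comparison of Thbd was called by edgeR or under any alternative.

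Tfpi (chromosome 2, 84432855 to 84476775, minus strand), the main brake on tissue factor, had 329, 325 and 306 CPM in endocardial replicates 1, 2 and 3. It had 269, 273 and 355 CPM in the venous and 258, 223 and 174 in the arterial ones. Arterial libraries were lower than all others. The arterial to endocardial difference of Tfpi was log2 -0.55 ± 0.18 and just missed the threshold (adjusted p = 0.0527). With the replicate block it passed (adjusted p = 0.0387), as it did with RLE scaling (0.0403), with DESeq2 (0.0198) and without arterial replicate 1 (0.0209), in a range of 0.0198 to 0.237 over the alternatives. Against venous libraries the difference was -0.45 ± 0.18 (adjusted p = 0.435), and venous and endocardial libraries overlapped (-0.10 ± 0.18, adjusted p = 0.818).

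Tfpi2 (chromosome 6, 3962595 to 3988919, minus strand) encodes a related inhibitor with Kunitz domains that acts on plasmin and other proteases and is held in the matrix. Its levels were 18.4, 16.2 and 22.5 CPM in endocardial replicates 1, 2 and 3, then 19.4, 13.03 and 20.0 in the venous and 9.80, 5.18 and 7.06 in the arterial ones. As for Tfpi, the arterial libraries lay below all others. The difference was log2 -1.37 ± 0.35 against endocardial (2.59-fold lower, adjusted p = 0.0141) and -1.25 ± 0.35 against venous libraries (adjusted p = 0.142, and 0.0316 with DESeq2, in a range of 0.0316 to 0.547). The call against endocardium ended without arterial replicate 2 (0.0753) or endocardial replicate 3 (0.0592), in a range of 0.00171 to 0.0753. Venous and endocardial libraries overlapped (-0.12 ± 0.34, adjusted p = 0.889).

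Procr, Tfpi and Tfpi2, the anticoagulant genes above with a RefSeq window, are shown with the sequence before their start. All 3 were lower in every arterial than in every venous library, but none was called there in the main fit. Of the 9 members, 5 did not overlap between arterial and venous libraries, against 17.3% of all genes in either direction. The others were F8 (lower) and Plat (higher). F8, the only member called in that comparison, also has a RefSeq window, but its sequence is not shown. The stretches come from RefSeq (GRCm38.p6), read 5′ to 3′ on the gene's strand, are taken from the RefSeq window whose start site is nearest to the GENCODE one, and run up to that start site or, where it comes first, to a GENCODE exon. RefSeq windows were found for 5 of the 9 members, which also include F8 and F3. Capitals mark matches on either strand to the letters CACCC of KLF factors, AGATAA of GATA factors, GGAAGT of ETS factors, TATAAA of the TATA box and GGGCGG of the GC box, none of which share bases here. They lie at chr2:155750967-155751116 (plus strand) for Procr, chr2:84476776-84477009 (minus) for Tfpi and chr6:3988937-3989186 (minus) for Tfpi2.
Procr: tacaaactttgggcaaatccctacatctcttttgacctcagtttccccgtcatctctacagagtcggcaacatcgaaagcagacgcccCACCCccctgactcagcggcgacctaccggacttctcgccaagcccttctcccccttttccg
Tfpi: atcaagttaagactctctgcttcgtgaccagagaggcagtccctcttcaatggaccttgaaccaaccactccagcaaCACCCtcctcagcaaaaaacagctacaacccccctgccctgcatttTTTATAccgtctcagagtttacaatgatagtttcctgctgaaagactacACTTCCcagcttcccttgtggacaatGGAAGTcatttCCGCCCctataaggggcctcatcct
Tfpi2: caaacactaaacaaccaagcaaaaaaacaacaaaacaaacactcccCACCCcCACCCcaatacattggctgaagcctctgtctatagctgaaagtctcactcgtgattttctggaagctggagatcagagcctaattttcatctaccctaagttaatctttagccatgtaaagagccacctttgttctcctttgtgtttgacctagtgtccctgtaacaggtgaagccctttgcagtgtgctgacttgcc
CACCC occurred 1 time in the 150 bases of Procr, 1 time in the 234 of Tfpi and 2 times in the 250 of Tfpi2. It is also found in 37.4%, 50.1% and 52.0% of 32851 upstream windows cut to these lengths. Those windows hold the bases just before the start site and were not cut at exons. The Procr and Tfpi stretches end at an exon before it, so that the shares for 150 and 234 bases are of bases nearer the start. Tfpi alone also held GGAAGT (2 sites), TATAAA (1) and GGGCGG (1), letters found in 18.7%, 11.6% and 32.2% of windows of 234 bases.

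The summed fibroblast markers had the same order of populations as these 3 genes. The 7 markers (Col1a1, Col1a2, Col3a1, Pdgfra, Lum, Dcn and Postn) summed to 99.9 to 116 CPM in arterial, 1376 to 1608 in venous and 1609 to 1954 in endocardial libraries, and none was at 0 in any library. By their means, Pdgfra, Lum, Dcn and Postn were higher in endocardial than in venous libraries, and Col1a1, Col1a2 and Col3a1 lower. The sum of 7 cardiomyocyte markers was lowest in arterial libraries too, at 255 to 363 CPM in arterial, 386 to 527 in venous and 473 to 569 in endocardial ones. By their means, Tnnt2, Myh6, Actc1 and Ttn had that order. Myh7 (116 and 113 CPM) and Myl2 (18.1 and 15.3 CPM) were higher in venous than in endocardial libraries. Nppa had no count in any endocardial library and its highest mean, 0.29 CPM, in arterial ones. The part of both cell types in the differences of Procr, Tfpi, Tfpi2 and F8 was not tested.

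Both plasminogen activator genes were lowest in the endocardium. Plat (chromosome 8, 22757727 to 22782844, plus strand), the tissue-type activator that endothelium releases into blood, had 59.1, 55.2 and 66.7 CPM in endocardial replicates 1, 2 and 3. It had 114, 96.2 and 127 CPM in the venous and 184, 196 and 138 in the arterial replicates. These were 3 steps with no overlap, in the reverse order of Procr. Plat was higher than in endocardium by log2 1.52 ± 0.19 in arterial (2.86-fold, adjusted p = 2.82e-05) and by 0.90 ± 0.19 in venous libraries (adjusted p = 0.00423), under all 15 alternatives. The arterial to venous difference of 0.62 ± 0.19 was not called (adjusted p = 0.206) and reached adjusted p = 0.0493 with DESeq2, in a range of 0.0493 to 0.762 over the alternatives.

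Plau (chromosome 14, 20836660 to 20843385, plus strand), the urokinase activator that acts at the cell surface, differed more than Plat. It had 3.97, 4.32 and 2.31 CPM in endocardial replicates 1, 2 and 3, against 25.2, 18.0 and 12.5 in the venous and 21.5, 21.8 and 31.5 in the arterial ones. Counts in the endocardial libraries were 52, 60 and 34. Plau was 7.06-fold higher in arterial (log2 2.82 ± 0.38, adjusted p = 6.58e-05) and 5.25-fold higher in venous than in endocardial libraries (2.39 ± 0.38, adjusted p = 0.000398), again under all 15 alternatives. Arterial and venous libraries overlapped and did not differ beyond their spread (0.43 ± 0.35, adjusted p = 0.844).

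The leukocyte and epicardial marker sums were lower in every endocardial than in every coronary library, and the erythroid sum was lower than in every arterial one. A list of 10 leukocyte and macrophage markers summed to 31.6 to 42.1 CPM in endocardial, 59.3 to 73.0 in arterial and 75.6 to 94.5 in venous libraries. Most of that sum was Mrc1 (26.4 to 88.4 CPM), whereas Ptprc, which encodes the CD45 antigen used to remove leukocytes, had at most 3.32 CPM in any library. Tyrobp, Fcer1g and C1qa had no count in the endocardial libraries and means of at most 0.48 CPM in any population. Cd68, Csf1r, Adgre1, C1qb and Lyz2 had their highest means in endocardial libraries, at most 3.81 CPM, so that the lower sum there followed Mrc1. The 5 erythroid markers summed to 59.7 to 202 CPM in endocardial, 194 to 328 in venous and 457 to 1050 in arterial libraries. The 5 epicardial markers summed to 24.9 to 30.0, 148 to 181 and 181 to 211 CPM in the same order. Most of that was Wt1, with means of 20.1, 147 and 189 CPM, whereas Upk3b (2.37, 0.38 and 0.47 CPM) and Msln (1.15, 0.47 and 0.37 CPM) were low throughout and highest in endocardial libraries. The 6 mural markers overlapped between endocardial (44.0 to 76.5 CPM) and venous libraries (52.6 to 65.3) and were at 75.0 to 129 CPM in arterial ones. Among them Rgs5 had means of 4.17, 29.3 and 71.3 CPM in endocardial, venous and arterial libraries, Pdgfrb 40.8, 9.40 and 14.8 CPM and Cspg4 6.08, 6.04 and 5.57 CPM. The part of these cells in the Plat and Plau differences was not tested.

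**Figure D3:**
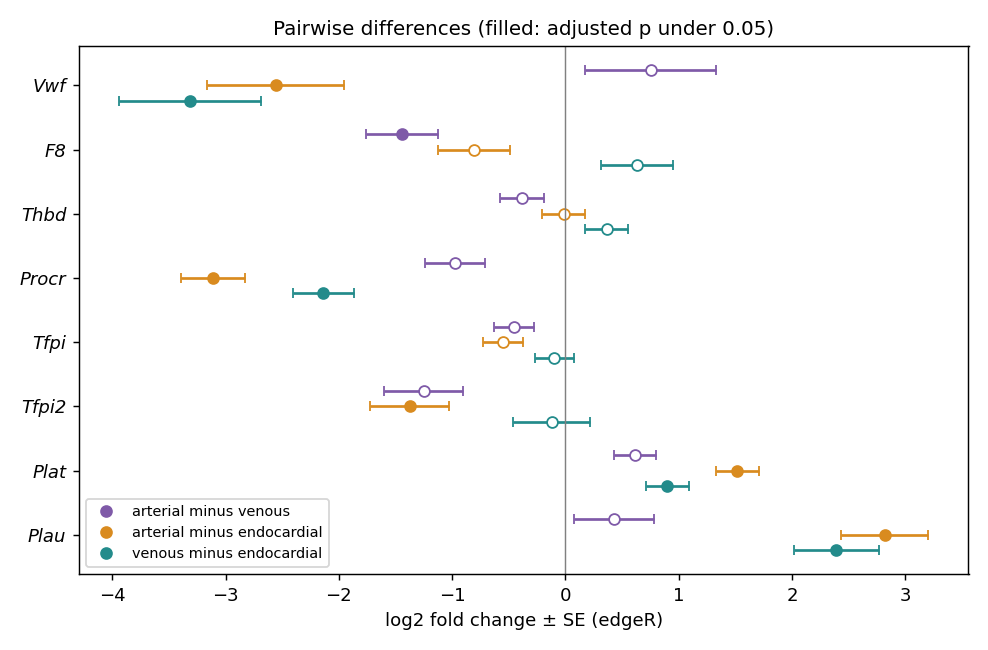
Log2 fold changes ± SE (horizontal axis) of 8 members for the 3 pairwise comparisons, with filled points for an adjusted p under 0.05 in edgeR and F3 left out because of its low counts. Procr lies at -3.11 and -2.14 and Plau at 2.82 and 2.39 against the endocardium, and F8 has the only filled point for arterial against venous libraries.

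Counted by pair, 5 of 9 members were called between arterial and endocardial libraries (Vwf, Procr and Tfpi2 lower, Plat and Plau higher in arterial), where 11.7% of all genes were called (5.92% higher and 5.75% lower). Between venous and endocardial libraries 4 of 9 were called (Vwf and Procr lower, Plat and Plau higher in venous), where 10.2% of all genes were (5.81% higher and 4.44% lower). Libraries did not overlap for 7 of 9 members in the first comparison and 6 of 9 in the second, against 25.6% and 28.2% of all genes. The 2 comparisons share the endocardial libraries.

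The other genes of haemostasis were taken from 5 lists that hold 72 genes, of which 57 were tested. Between endocardial libraries and the coronary mean 19 were higher, 3 lower and 35 not called, with a median log2 fold change of 0.82 against 0.08 over all genes, of which 6.91% were higher and 7% lower. The arterial to endocardial comparison had 2 higher and 18 lower, beside 5.92% of all genes higher and 5.75% lower. The venous to endocardial one had 2 higher and 12 lower, beside 5.81% higher and 4.44% lower. The arterial to venous one had 2 lower and none higher, beside 0.76% lower and 0.31% higher. Without the low-count filter the arterial to venous comparison had 4 called, and 439 of all genes in place of 183. Without endocardial replicate 3 the calls between arterial and endocardial libraries numbered 13 in place of 20. Over all genes they fell from 1996 to 1636. Those between venous and endocardial libraries numbered 9, 8 and 7 without venous replicates 1, 2 and 3, in place of 14. Over all genes these numbered 1339, 1306 and 1130, in place of 1753.

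For each list, the share of all genes called in this comparison is 13.9%, with 6.91% higher and 7% lower. The list of plasma clotting factors and their inhibitors held 25 genes. Of these, 16 were tested, 2 were higher in the endocardium than in the coronary mean and 14 were not called. Liver-made factors were at low levels: F2 (prothrombin), F10 and F5 had means of at most 5.34 CPM in any population, and Fga, Fgb and Fgg did not pass the filter. A2m, encoding the broad protease inhibitor alpha-2-macroglobulin, had 45.8, 127 and 87.8 CPM in endocardial replicates 1, 2 and 3, against 9.41 to 15.0 in venous and 0.66 to 6.05 in arterial libraries. Its log2 difference from the coronary mean was 3.78 ± 0.54 (adjusted p = 0.00205). With the replicate block A2m was also called lower in arterial than in venous libraries (adjusted p = 0.0246, in a range of 0.0246 to 0.953). Pros1, the gene of protein S, a cofactor of activated protein C, had 146 ± 23.1 CPM in endocardial, 108 ± 9.13 in venous and 97.5 ± 12 in arterial libraries (SD, n = 3). Its call (log2 0.51 ± 0.15, adjusted p = 0.0338) ended without arterial replicate 3, endocardial replicates 2 or 3 or any venous replicate (adjusted p = 0.0518 to 0.265). It also ended without a scaling factor (0.074) and without the low-count filter (0.0617).

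Among 4 genes of the thrombin receptor family (F2r, F2rl1, F2rl2 and F2rl3), 1 was called against the coronary mean, where 13.9% of all genes were. F2r, encoding the receptor PAR1 that thrombin cuts on endothelium, had 722, 788 and 973 CPM in endocardial replicates 1, 2 and 3, against 341 to 429 in venous and 197 to 278 in arterial libraries. It was higher in endocardium than in the coronary mean by log2 1.48 ± 0.14 (2.78-fold, adjusted p = 1.46e-06). The other 3 genes (F2rl1, F2rl2 and F2rl3) were not called in any comparison.

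Of 11 other fibrinolysis genes 6 were tested, and 1 was lower in endocardium, as 7% of all genes were. S100a10, a subunit of the annexin A2 complex that binds plasminogen at the cell surface, had 144 ± 21.4 CPM in endocardial, 219 ± 28.4 in venous and 196 ± 3.29 in arterial libraries. Its log2 difference of -0.52 ± 0.15 (adjusted p = 0.024) lost the call without arterial replicate 2 (0.0529), endocardial replicate 2 (0.166) or venous replicate 1 (0.0695), in a range of 0.00871 to 0.166. Plaur, the urokinase receptor gene, was picked after its values were seen, as the partner of Plau. It had 10.3 ± 6.52 CPM in endocardial, 14.3 ± 1.96 in venous and 13.5 ± 2.35 in arterial libraries (adjusted p = 0.585). Plasminogen itself (Plg) did not pass the filter.

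The genes of the Weibel-Palade body and of the handling of von Willebrand factor and factor VIII had 15 tested members, of which 7 were higher in the endocardium than in the coronary mean, 1 was lower and 7 were not called, beside 6.91% of all genes higher and 7% lower. Without endocardial replicate 3, 5 of them were called, and 1905 of all genes in place of 2379. Mcfd2 and Lman1 encode the pair that carries factors V and VIII out of the endoplasmic reticulum. Mcfd2 had 288, 307 and 364 CPM in endocardial replicates 1, 2 and 3, against 78.9 to 137 in venous and 76.8 to 95.4 in arterial libraries (log2 1.76 ± 0.17, adjusted p = 1.03e-06). Lman1 was higher by 0.60 ± 0.14 (adjusted p = 0.00571). Cd63, a membrane protein of the organelle, was 2.14-fold higher (1.10 ± 0.14, adjusted p = 3.04e-05). Rab27a, the small GTPase of its transport, had 28.2 ± 1.98 CPM in endocardial, 8.82 ± 0.75 in venous and 5.52 ± 3.56 in arterial libraries (2.01 ± 0.34, adjusted p = 0.000425).

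Selp, encoding the stored adhesion molecule P-selectin, rested on 1 library. It had 5.35, 1.51 and 21.7 CPM in endocardial replicates 1, 2 and 3, against 0.67 to 4.61 in venous and 0.29 to 0.40 in arterial libraries. Its call (log2 3.37 ± 0.76, adjusted p = 0.00508) ended without endocardial replicate 3 (1.89, adjusted p = 0.316). Rab3b, another GTPase gene of the organelle, was the 1 lower gene. It had no count in any endocardial library while the mean was 2.19 CPM in the venous and 1.61 CPM in the arterial ones. At a floor of 3 counts per library these means were at least 10.1-fold and 7.45-fold higher than in endocardium. Arterial replicate 2 had only 6 counts (0.35 CPM), close to that floor (0.22 CPM). The call of Rab3b against endocardium held under 9 of 14 alternatives for arterial libraries (adjusted p up to 0.0672). For venous libraries it held under 12 of 15 (up to 0.0634). Genes annotated on the opposite strand share exon bases with Selp, Rab3b, Ptgs1 and Thbs1, and a pseudogene shares some with Rab27a. The counting strand is not given in the sources used here, so that reads of such partners cannot be told apart.

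In the list of vessel wall control of platelets and clotting, 9 of 16 genes were higher in endocardium, 1 was lower and 6 were not called, beside the same 6.91% and 7% of all genes. The lower gene was Anxa5, named after its values were seen, which encodes the phospholipid-binding protein annexin A5 (log2 -0.60 ± 0.16, adjusted p = 0.019). Ptgs1, the cyclooxygenase gene that starts prostacyclin synthesis, had 150, 198 and 279 CPM in endocardial replicates 1, 2 and 3, against 51.9 to 62.9 in venous and 10.9 to 20.0 in arterial libraries. It was higher by log2 2.86 ± 0.21 (7.27-fold, adjusted p = 6.15e-08) in endocardium and lower by 1.97 ± 0.26 in arterial than in venous libraries (adjusted p = 0.000561). Entpd1, the ectonucleotidase CD39 that removes the platelet agonist ADP, was 2.16-fold higher (1.11 ± 0.16, adjusted p = 9.58e-05). Vkorc1, needed to recycle vitamin K for clotting factors and protein S, was 2.603-fold higher (1.38 ± 0.24, adjusted p = 0.000696), though it shares exon bases with another annotated gene on its strand. Klf2, the flow-responsive factor known to induce Thbd, had 125 ± 7.19 CPM in endocardial, 77.2 ± 18.0 in venous and 64.6 ± 1.87 in arterial libraries (0.82 ± 0.16, adjusted p = 0.00152).

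Thbs1, which encodes the matrix and platelet protein thrombospondin 1, parted the coronary populations. Its levels were 92.9 ± 15.0 CPM in endocardial, 71.3 ± 14.3 in venous and 8.80 ± 4.20 in arterial libraries. Its arterial to venous difference was log2 -3.02 ± 0.30 (8.11-fold lower, adjusted p = 3.35e-05). The summed fibroblast and cardiomyocyte markers above had the same order of populations as Thbs1 and Ptgs1. The part of both cell types in the differences of these genes was not tested. Of the multimerin genes, Mmrn2, an endothelial matrix gene, was 1.96-fold higher in endocardium than in the coronary mean (0.97 ± 0.14, adjusted p = 0.000127). Mmrn1, the gene of a factor V binding protein of platelets and endothelium, was chosen after its values were seen. It had 160, 122 and 175 CPM in endocardial replicates 1, 2 and 3, against 4.26 to 20.0 in venous and 1.56 to 5.38 in arterial libraries (4.84 ± 0.60, adjusted p = 0.00159). Apart from Flt4, the means of the lymphatic markers above had the same order of populations as Mmrn1. The part of lymphatic cells or platelets in the Mmrn1 difference was not tested.

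**Figure D4:**
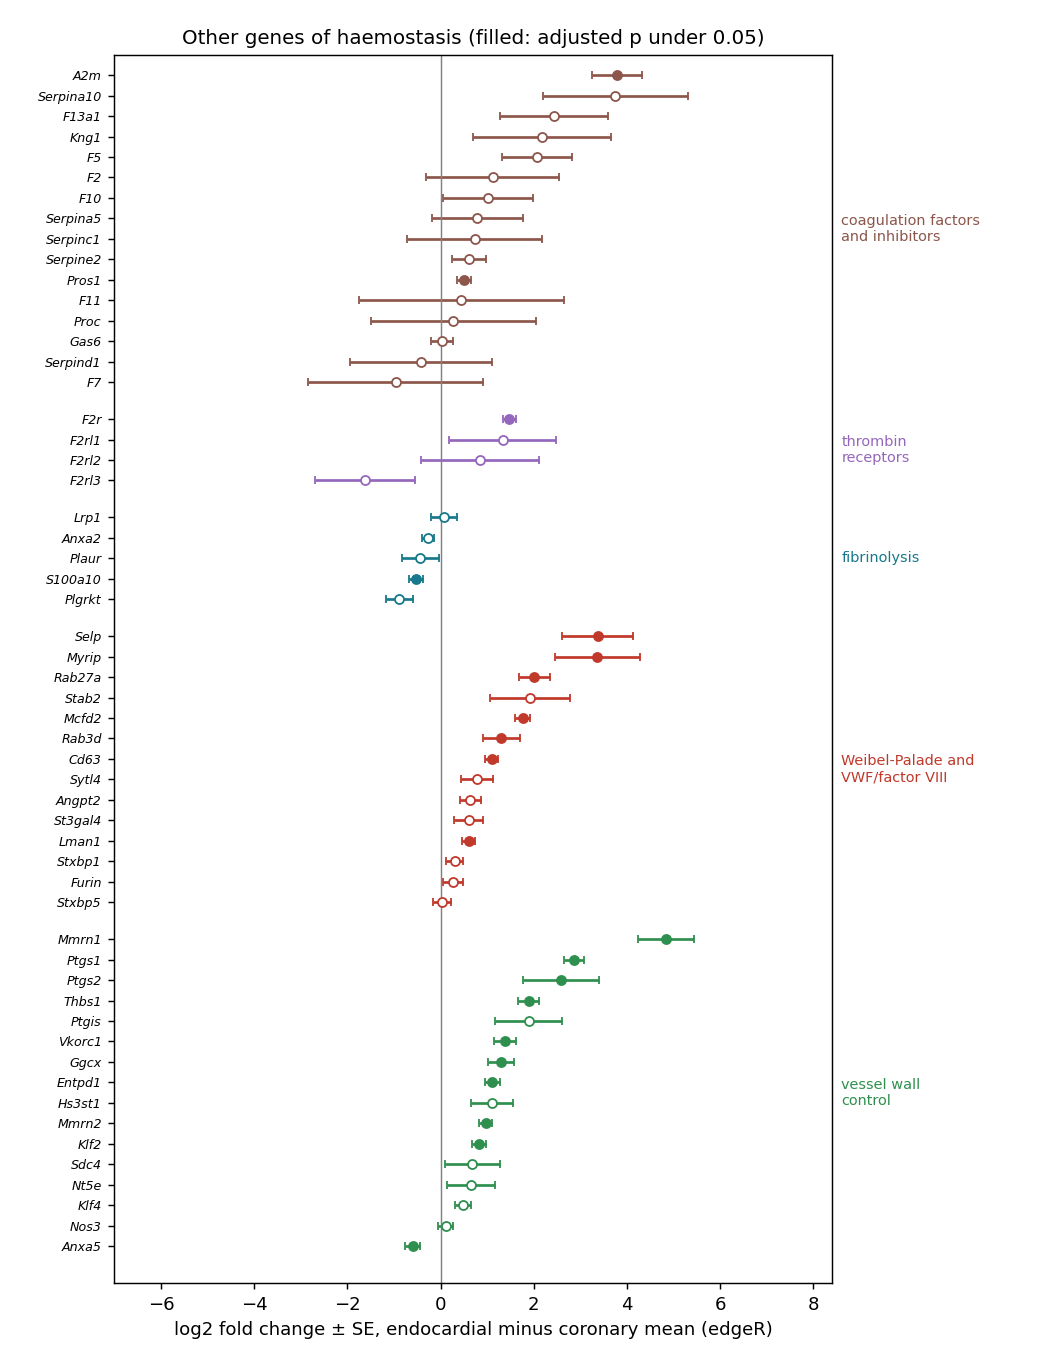
Log2 fold changes ± SE of the endocardial libraries against the coronary mean (horizontal axis) for tested genes of the 5 lists, without Rab3b, with filled points for an adjusted p under 0.05 in edgeR. Rab3b had no count in the endocardial libraries. Filled points lie mainly to the right in the lists of Weibel-Palade and vessel wall genes.

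As a description of likeness, each member was compared by Pearson correlation of log2 CPM over the 9 libraries with 6628 other genes that have a mean log2 CPM of at least 4. The 9 points share 3 populations and the libraries' depth, and no p-value is given. Vwf was most like Tlr4 (r = 0.997), Sft2d2 (0.990) and Rgs3 (0.987). Procr was most like Itpr2 (0.994), Nfia (0.990) and Igfbp5 (0.987). For Plat the nearest genes were Retreg1 (0.986), Clic4 (0.983) and Stim2 (0.981), and for Plau Pgm2l1 (0.974), Lcp1 (0.970) and Zfp979 (0.966). Tfpi was nearest to Tnnt2 (0.969), which is one of the cardiomyocyte markers above, Mesd (0.929) and Epb41l2 (0.922), and Tfpi2 to Nsg1 (0.967), Hapln1 (0.953) and mt-Cytb (0.948). The values were lower for F8 (Nol9, 0.943), F3 (Sec23b, 0.913) and Thbd (Desi1, 0.906).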

How the data were processed

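The authors deposited 1 table of RSEM expected counts for 41214 Ensembl genes in 9 libraries of polyA RNA, on GRCm38 per the submitters' processing notes. The submitters' processing notes name CASAVA 1.8.2, cutadapt 1.3 and RSEM 1.2.3. Not given in the sources used here are the aligner and the strand setting. The labels name more than 1 library kit. Of the values above 0, 45.5% were not whole, and all were rounded. Symbols came from GENCODE M21, with 40254 genes matched.

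Counts were filtered with filterByExpr (minimum count 10), scaled by TMM and fitted in edgeR 4.0.16 (R 4.3.3) by the quasi-likelihood test, with 1 mean per population over the 9 libraries. Benjamini-Hochberg adjusted p-values cover 17103 genes, the threshold was 0.05, and SE is the log2 fold change divided by the root of F. CPM use the TMM library sizes, and values per kilobase use the longest GENCODE transcript. The procedure was tested on simulated data. Alternatives were RLE scaling, no scaling factor, no filter, DESeq2 1.42.0, the replicate block, only the compared populations (not for the endocardial to coronary comparison), and leaving out each library.

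The batch label equals the replicate number in every library, so the numbers pair the samples by batch. For same-numbered libraries, the deviations from the population means had correlations of 0.083 to 0.165 (replicates 1), 0.036 to 0.146 (replicates 2) and -0.090 to 0.092 (replicates 3). Of the 9 libraries, 5 correlated best with their own number. No 2 libraries held identical values.

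All members are named. Of each other list, genes called in any comparison are named, up to 6 by smallest p, and exceptions are stated. The members and lists were chosen with earlier results of these data known. Other list genes enter the counts unnamed, and 1 result is not reported here.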

Additional observations from a re-analysis of the deposited data

How the results depend on the processing

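Of the 8 counts of genes and of members called, those against the coronary mean moved by less than 1.5 times under every alternative, with 4 members called without each library in turn. Between arterial and venous libraries 183 genes were called, against 439 without the low-count filter, 410 with DESeq2 and 120 to 225 without 1 library (120 without venous replicate 1). Of the members 1 was called there, against 2 without the filter, 4 with DESeq2 and 0 to 1 without 1 library. Between arterial and endocardial libraries 5 members were called, and 3 to 5 without 1 library (3 without arterial replicate 2 or endocardial replicate 3). Between venous and endocardial libraries 1753 genes were called, and 1130 to 1871 without 1 library (1130 without venous replicate 3). With the replicate block, which pairs libraries by batch, 225, 2722, 2312 and 2097 genes were called for arterial against venous, endocardial against coronary, arterial against endocardial and venous against endocardial libraries. The members called with the block were 1, 4, 6 and 4, and the block changed no member's call other than that of Tfpi between arterial and endocardial libraries. The sign turned only for differences that were not called. These were F3 between arterial and venous libraries without arterial replicate 3 (-0.844 to 1.888 without 1 library, values that its low counts do not fix), and F8 against the coronary mean without arterial replicate 3 (-0.046) or endocardial replicate 2 (-0.014, in all -0.046 to 0.158). Thbd between arterial and endocardial libraries turned without a scaling factor (0.089), without the filter (0.013), without arterial replicate 1 (0.147) and without endocardial replicate 3 (0.125), with -0.144 to 0.147 without 1 library. Plaur did so there without endocardial replicate 3 (-0.026 to 0.892 without 1 library), and Tfpi2 between venous and endocardial libraries without endocardial replicate 3 (0.026) or venous replicate 2 (0.056), with -0.218 to 0.056 without 1 library. The cause of these changes was not tested. Depth limits F3, with 0 to 43 counts per library, and Rab3b.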
